A study of Homo sapiens with 2 samples.

Results

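Neighbouring genes can share the stretch of chromatin at which they begin or end. The regions described here are lactyl-lysine CUT&Tag peaks whose summit lay within 1 kb of an end of at least 2 different protein-coding genes. They were 3216 of 93524 peak regions on chromosomes 1 to 22 and X, 1479 of 43413 in the untreated-labelled library (3.41%, interval 3.24 to 3.58) and 1737 of 50111 in the lactate-labelled library (3.47%, interval 3.31 to 3.63). Together they formed 1877 separate places, 1251 of them with members from both libraries. CAL27 is an established line of human oral squamous cell carcinoma, and CUT&Tag directs a transposase with an antibody, here one against lactylated lysine on any protein, to insert sequencing adapters into the DNA next to it. One library came from CAL27 cells with no treatment and 1 from CAL27 cells given 10 mM lactate for 24 hours, with 15696147 and 15120031 tags. Each group is a single library, so nothing could be tested and no p-value is given. All intervals are 95% and cover counting error only, exact Clopper-Pearson for shares and order statistics for medians. Regions of 1 library are not replicates of a condition. In both lists the command line, the input file and all peak names carry the other sample's name, and only the name line of the header matches the label. The libraries are therefore called by their labels throughout. Every direction between the libraries would turn if the lists were exchanged.

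When 2 genes lie head-to-head, their transcription starts face away from each other or overlap, and a short stretch between the starts can serve as a promoter for both. Such bidirectional promoters are common in the human genome and are known for high GC content, CpG islands and a lack of TATA boxes. They often drive housekeeping genes, such as those of DNA repair, histones and mitochondrial proteins. Genes that lie tail-to-tail meet at their 3′ ends, and head-to-tail neighbours follow each other on 1 strand, so that the 3′ end of the first lies near the start of the second. Strand was known for 15812 of 19974 genes (79.2%). It placed 1140 of the 1479 member regions of the untreated-labelled library and 1321 of the 1737 of the lactate-labelled library in a class. An end is called a start or a far end by strand. The gene table used carries no exons, so no UTR, exon or intron is named.

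The sequences between the 2 starts of 8 head-to-head pairs show the letters at some of the strongest and of the library-specific regions. They are RefSeq sequence of GRCh38.p14, on the strand with increasing coordinates, from the base after the start of the first gene to the base before the start of the second. Capitals mark matches on either strand to the GC box, searched as the letters GGGCGG, to the CCAAT box, searched as those 5 letters, or to the core of ETS factor motifs, searched as CCGGAA. The TATA box, searched as the letters TATAAA, was not found in these 8 stretches. No searched motif contains another, and a match is a description of the letters and not of a bound factor. The first 4 pairs were among the strongest in 1 of the libraries. SARS2/MRPS12 is a textbook bidirectional promoter, EFHB/RAB5A and CWC15/KDM4D were marked in the lactate-labelled library alone, and ALG12/CRELD2 in the untreated-labelled library alone. The 8 are a selection, and each holds a GC box. Of other pairs named below, COMMD6/UCHL3, SH3YL1/ACP1 and SERAC1/GTF2H5 held none of the searched motifs between their starts. NUP37/PARPBP and SIRT3/PSMD13 held no GC box there, and HSPD1/HSPE1 and COL4A1/COL4A2 held 1 each.
YIPF5/KCTD16, chr5:144170660-144170872: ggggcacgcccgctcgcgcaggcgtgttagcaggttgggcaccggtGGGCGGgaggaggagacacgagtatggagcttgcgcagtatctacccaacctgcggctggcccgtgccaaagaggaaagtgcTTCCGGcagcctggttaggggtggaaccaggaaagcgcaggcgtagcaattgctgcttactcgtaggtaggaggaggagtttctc
TFB2M/CNST, chr1:246566262-246566455: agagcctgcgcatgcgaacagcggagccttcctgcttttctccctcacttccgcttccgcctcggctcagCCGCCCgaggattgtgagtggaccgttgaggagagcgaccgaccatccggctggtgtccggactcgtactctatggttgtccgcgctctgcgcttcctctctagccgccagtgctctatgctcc
GIN1/PPIP5K2, chr5:103120139-103120300: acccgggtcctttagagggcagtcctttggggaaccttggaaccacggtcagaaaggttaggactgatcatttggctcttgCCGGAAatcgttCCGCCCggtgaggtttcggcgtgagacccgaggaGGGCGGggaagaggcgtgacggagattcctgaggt
RAB2B/TOX4, chr14:21476960-21477194: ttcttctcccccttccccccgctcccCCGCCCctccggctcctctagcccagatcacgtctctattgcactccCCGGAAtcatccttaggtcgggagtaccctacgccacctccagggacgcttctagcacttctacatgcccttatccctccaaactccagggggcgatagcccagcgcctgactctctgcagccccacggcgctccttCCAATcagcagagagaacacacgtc
SARS2/MRPS12, chr19:38930764-38930943: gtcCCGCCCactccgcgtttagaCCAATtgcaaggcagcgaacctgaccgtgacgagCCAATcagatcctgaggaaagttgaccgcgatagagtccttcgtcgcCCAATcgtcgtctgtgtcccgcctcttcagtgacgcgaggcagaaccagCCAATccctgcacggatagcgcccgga
EFHB/RAB5A, chr3:19946984-19947096: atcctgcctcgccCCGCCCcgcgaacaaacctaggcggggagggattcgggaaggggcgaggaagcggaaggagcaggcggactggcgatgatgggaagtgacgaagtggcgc
CWC15/KDM4D, chr11:94973557-94973708: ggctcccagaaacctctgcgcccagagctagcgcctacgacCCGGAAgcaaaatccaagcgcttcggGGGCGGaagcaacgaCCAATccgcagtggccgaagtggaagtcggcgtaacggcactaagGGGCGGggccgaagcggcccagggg
ALG12/CRELD2, chr22:49918439-49918633: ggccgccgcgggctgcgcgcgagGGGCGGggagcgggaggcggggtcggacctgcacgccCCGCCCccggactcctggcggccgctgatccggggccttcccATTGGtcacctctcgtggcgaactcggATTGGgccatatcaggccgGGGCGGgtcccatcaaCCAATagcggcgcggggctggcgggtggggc
The stretch between RAB2B and TOX4 held 1 GC box, 1 ETS core and 1 CCAAT box, and the summits lay 111 and 113 bases into its 235 bases in the libraries labelled untreated and lactate. Between YIPF5 and KCTD16 both summits lay at base 91 of 213. The stretch between SARS2 and MRPS12 held 4 CCAAT boxes, and that between ALG12 and CRELD2 held 3 CCAAT boxes and 3 GC boxes.

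The first comparison asked which orientation of neighbouring genes carried the mark. Starts in head-to-head pairs were marked most often. Far ends that met tail-to-tail were nearly bare. A start was counted as head-to-head when the start of a gene on the other strand lay within 1 kb, and as isolated when no end of another protein-coding gene lay within 5 kb. A start was marked when a summit lay within 1 kb, so each start had a window of the same length. Of 2162 head-to-head starts, 1529 were marked in the untreated-labelled library (70.7%, interval 68.8 to 72.6) and 1724 in the lactate-labelled library (79.7%, interval 78.0 to 81.4). Of 10433 isolated starts, 3878 (37.2%, interval 36.2 to 38.1) and 4417 (42.3%, interval 41.4 to 43.3) were marked. Among all starts of known strand the shares were 42.1% and 47.9%. Head-to-head starts thus exceeded isolated starts by 33.6 and 37.4 percentage points, and the intervals did not overlap in either library. Members of a pair share a window, so the starts are not independent of each other. By definition the window of a head-to-head start also held the partner's start, and that of an isolated start held no other gene end. The windows were thus equal in length but not in the number of starts. How much of the excess follows from this was not tested.

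Starts whose only neighbouring end was the far end of the gene before them, on the same strand, did not share this excess. Of 411 such head-to-tail starts, 145 (35.3%, interval 30.7 to 40.1) and 181 (44.0%, interval 39.2 to 49.0) were marked, and their intervals included the shares of isolated starts. Far ends were marked seldom unless a start lay beside them. Of 10116 isolated far ends 2.88% and 3.54% were marked in the libraries labelled untreated and lactate, and of 1210 tail-to-tail far ends 5.54% (interval 4.32 to 6.98) and 6.45% (interval 5.13 to 7.98). Far ends next to the start of the following gene were marked in 34.0% and 41.8% of 426 cases, close to the shares of the starts beside them, and their windows overlap. Over all ends, with or without known strand, 39.8% and 45.7% of 6684 paired ends were marked, against 19.2% and 22.3% of 26188 isolated ends and 22.2% and 25.6% of all 39948 ends. Here too the window of a paired end held another gene end by definition, and that of an isolated end did not. Counting only regions with a fold of at least 5 lowered the excess of paired over isolated ends from 20.6 to 12.4 percentage points in the untreated-labelled library.

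**Figure D1:**
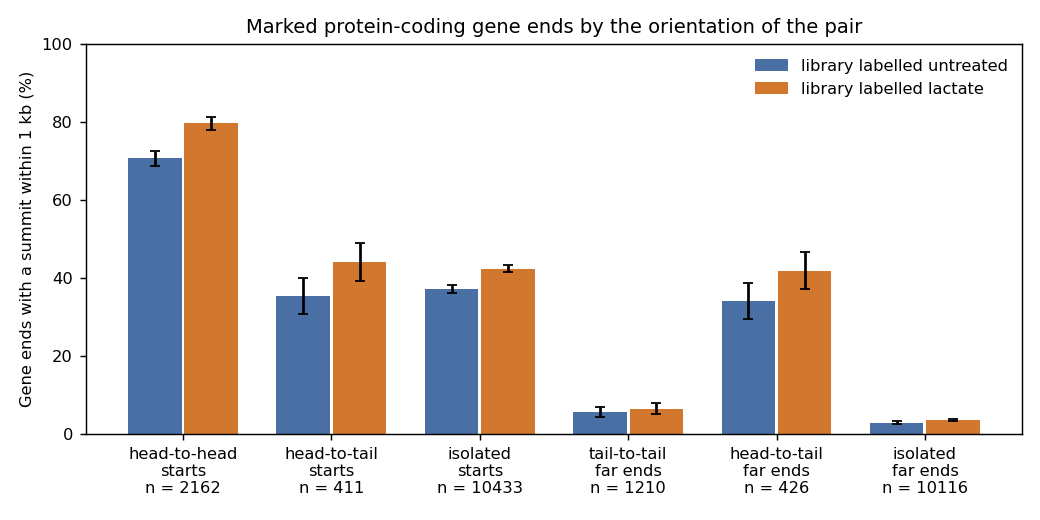
Share of protein-coding gene ends with a summit within 1 kb (y axis, percent), by the orientation of the neighbouring end (x axis), for the libraries labelled untreated (blue) and lactate (orange). Bars are shares with 95% Clopper-Pearson intervals. Windows of paired ends also hold the neighbouring end, and those of isolated ends hold no other. Head-to-head starts reach 70.7% and 79.7%, and tail-to-tail far ends 5.54% and 6.45%.

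Head-to-head regions made up more than every other class of members. They were 822 of the 1479 members in the untreated-labelled library (55.6%, interval 53.0 to 58.1) and 946 of 1737 in the lactate-labelled library (54.5%, interval 52.1 to 56.8). Head-to-tail regions numbered 169 and 210, tail-to-tail regions 31 and 32. A further 72 and 83 regions joined ends on the same side of genes on 1 strand, or a start and a far end on opposite strands. Among places with 3 or more genes, 46 and 50 regions held more than 1 orientation. A further 339 and 416 regions lacked the strand of at least 1 gene. Most members touched 2 genes, 58 and 63 touched 3, and 2 in the lactate-labelled library touched at least 4.

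The strongest head-to-head regions stood at genes of many functions, and both libraries had a region at each of the 10 described here. In the untreated-labelled library the highest fold enrichment, 12.93, lay between YIPF5, which encodes a Golgi membrane protein, and KCTD16, an auxiliary subunit gene of the GABA-B receptor, on chromosome 5 from 144170571 to 144170909. The lactate-labelled library had 8.80 there, with pileups of 29 and 21 tags. Fold enrichment is the peak caller's ratio of the summit to the local background and ranks peaks within 1 list. Pileup is the number of extended tags at the summit. TFB2M, a mitochondrial transcription factor gene, and CNST, which encodes a connexin trafficking protein, shared a region from 246566113 to 246566838 on chromosome 1 with folds of 12.92 and 8.38. NUP37, a nuclear pore gene, and PARPBP, an inhibitor of homologous recombination, had folds of 11.68 and 8.90 on chromosome 12. GIN1 and the inositol pyrophosphate kinase gene PPIP5K2 had 11.56 and 7.69 on chromosome 5. SH3YL1 and the phosphatase gene ACP1 had 11.34 and 9.75 on chromosome 2, with the longest region of these 5, 1116 bp.

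The other 5 pairs led the list of the lactate-labelled library. C2CD3, a gene of centriole elongation, and PPME1, the methylesterase of protein phosphatase 2A, shared a region on chromosome 11 from 74170847 to 74171602 with a fold of 13.21 and a pileup of 73 tags. In the untreated-labelled library the fold there was 10.98 and the pileup 57 tags. RAB2B, a small GTPase gene, and TOX4, which encodes an HMG-box protein, had folds of 12.98 and 9.60 in the libraries labelled lactate and untreated, and the latter had another region there with a fold of 5.92. TOMM70, an import receptor of the mitochondrial outer membrane, and LNP1 had 12.50 and 8.86. COMMD6 and the ubiquitin hydrolase gene UCHL3, whose starts are 63 bp apart, had 12.26 and 11.20. ANKRD37 and LRP2BP had 11.61 and 9.06. Their transcripts overlap by 446 bp, and the region lay at the start of ANKRD37. Each of these 10 pairs was higher in the library whose ranking chose it. The choice favours this order of the 2 folds, so it is not read as a difference between the libraries.

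**Figure D2:**
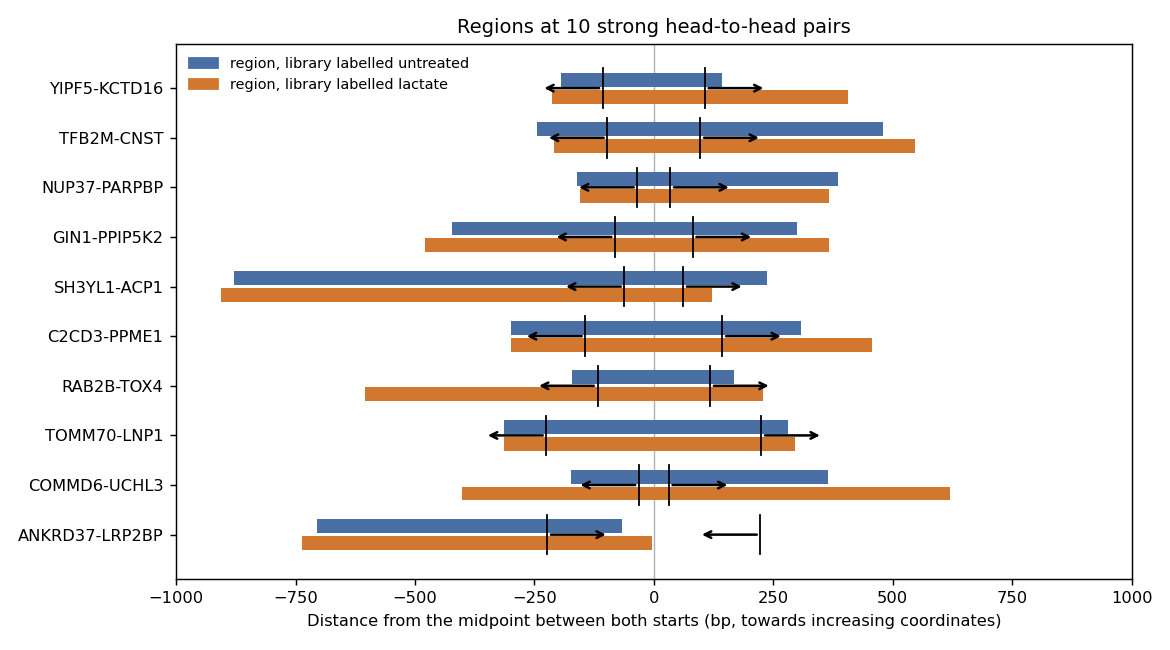
Extent of the strongest region of each library at the 5 head-to-head pairs of highest fold in each library, in bp from the midpoint between both starts (x axis), for the libraries labelled untreated (blue) and lactate (orange). Black ticks are the 2 starts and arrows the direction of transcription. At 9 pairs the starts diverge, and at ANKRD37 and LRP2BP they overlap by 446 bp.

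The spacing of the starts and the place of the summit were examined next. Divergent starts over 100 and up to 1000 bp apart were marked more often than closer or more distant ones. Among pairs over 100 and up to 300 bp apart, 77.8% of starts were marked in the untreated-labelled library (interval 74.9 to 80.6) and 84.0% in the lactate-labelled library (interval 81.4 to 86.4). Pairs over 300 and up to 1000 bp apart reached 83.9% and 88.3%. At a spacing of 0 to 100 bp the shares were 55.0% (interval 50.1 to 59.9) and 71.9% (interval 67.3 to 76.1). The 342 pairs with overlapping transcripts had 60.8% and 69.9%, and the 51 divergent pairs over 1 and up to 2 kb apart 44.1% and 54.9%. Up to 1 kb apart the window of each start also held the partner's start, and at over 1 kb it did not. The lower share of the most distant pairs cannot be told apart from this limit of the window. The overlapping pairs include starts up to 2 kb apart, so they are not matched in distance to the other groups.

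Where a divergent pair was marked, a single region usually covered both starts. Of 814 divergent pairs with starts within 1 kb, 594 were marked in the untreated-labelled library (73.0%) and 662 in the lactate-labelled library (81.3%), and 576 in both. The strongest region covered both starts in 401 (67.5%) and 471 (71.1%) of these, and its summit lay between the starts in 394 (66.3%) and 432 (65.3%). The median distance of the summit from the midpoint was 77.8 bp and 72.0 bp, at a median spacing of 175 bp. More than 1 region with its summit within 1 kb of both starts was found at 69 and 103 pairs.

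**Figure D3:**
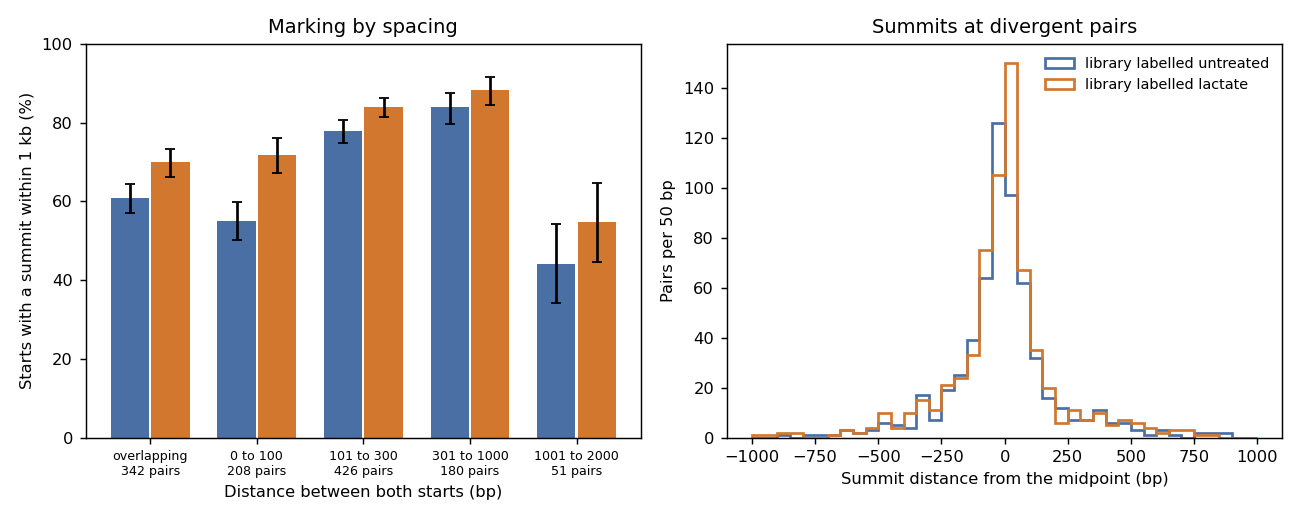
Left, share of head-to-head starts with a summit within 1 kb (y axis, percent, with 95% Clopper-Pearson intervals) by the distance between both starts (x axis, bp). The overlapping group includes starts up to 2 kb apart. For starts over 1 kb apart the window does not hold the partner's start. Right, number of divergent pairs per 50 bp bin of the distance from the midpoint between the starts to the summit of the strongest region, for starts within 1 kb. Shares reach 83.9% and 88.3% at over 300 and up to 1000 bp, and the median distance of the summit from the midpoint is 77.8 and 72.0 bp.

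The strength of the regions was compared within each library. Head-to-head regions had higher fold enrichments and were longer than regions at 1 start only. Their median fold was 5.38 (interval 5.22 to 5.56, quartiles 4.34 and 6.72) in the untreated-labelled library, against 4.94 (interval 4.89 to 4.97) for the 5305 regions at a single start. The values were 5.63 (interval 5.48 to 5.78, quartiles 4.47 and 7.18) and 5.14 (interval 5.08 to 5.20) in the lactate-labelled library. The quartile ranges of the classes overlapped widely. Median lengths were 441 and 468 bp for head-to-head regions, against 368 and 405 bp. More than 1 summit was called in 26.8% and 31.9% of head-to-head regions, and in 18.9% and 23.9% of regions at a single start. Over all members the median fold was 5.06 and 5.36, against 4.85 and 5.00 at the end of 1 gene only. That excess of 0.20 and 0.36 was 0.10 in both libraries with a window of 2 kb, less than its 95% half-width of 0.12. With equal lists of the strongest regions of both libraries it was 0.05 ± 0.13 in the lactate-labelled library, and the excess of head-to-head over single-start regions was 0.14 ± 0.24 there in place of 0.49 ± 0.17 (95% half-widths).

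Head-to-tail and tail-to-tail regions had lower folds on a higher background than head-to-head regions. The median fold of head-to-tail regions was 4.25 (interval 4.07 to 4.44) and 4.75 (interval 4.40 to 5.05). That of tail-to-tail regions was 4.01 (interval 3.46 to 4.62) and 3.65 (interval 3.25 to 4.32). Their median pileups, 20 and 23 tags and 22 and 21.5 tags, were no lower than the 18.5 and 20 tags of head-to-head regions. The median local background, recomputed from pileup and fold, was 2.62 and 2.77 tags at head-to-head regions, 3.64 and 3.92 at head-to-tail regions and 4.66 and 5.65 at tail-to-tail regions. This background follows from the same pileups and folds, so it is no separate observation. Regions at a single far end had median folds of 4.12 and 4.23 and a median local background of 3.24 and 3.34 tags. Lower folds on a higher background were thus not particular to paired ends. The cause of the lower folds was not tested.

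Among head-to-tail regions the strongest in both libraries lay at the start of PSMG1, a proteasome assembly chaperone gene, and the far end of BRWD1, a bromodomain gene. It spanned chromosome 21 from 39183076 to 39184131 in the untreated-labelled library and from 39182945 to 39184135 in the lactate-labelled library, with folds of 10.00 and 13.15 and pileups of 34 and 55 tags. The summits lay 25 and 32 bp from the start of PSMG1 and 637 and 630 bp from the end of BRWD1. The others of highest fold in the untreated-labelled library were ALKBH3-ACCSL (9.71), CNPY2-PAN2 (8.52, and 9.68 in the other library), CYCS-SPMIP4 (8.21), with the cytochrome c gene, and ELK1-UXT (7.78). In the lactate-labelled library they were SIRT5-NOL7 (11.33), with the gene of a mitochondrial deacylase, PSMB8-TAP1 (10.36), TMEM62-CCNDBP1 (10.28) and PPIH-YBX1 (9.72). PSMB8, an immunoproteasome subunit gene, starts 530 bp from the far end of the peptide transporter gene TAP1. At SIRT5-NOL7 the summit lay 36 bp from the start of NOL7 and 141 bp from the end of SIRT5.

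The few tail-to-tail regions were led by ICMT, a methyltransferase gene of prenylated proteins, and RNF207, on chromosome 1 from 6220242 to 6220600. Its folds were 9.72 in the untreated-labelled library and 7.95 in the lactate-labelled library, and its summit lay 769 and 780 bp from the end of ICMT. STAT6, the interleukin-4 signal transducer gene, and NAB2, an EGR corepressor gene, had folds of 5.60 and 6.53 with the summit 847 bp from the end of STAT6 and 779 bp from that of NAB2 in both libraries. TUBG2 and PLEKHH3 had 5.77 and 7.86, and the mannosyltransferase gene ALG3 and VWA5B2 5.12 and 5.96. RPL7L1 and PEX39 had 5.93 in the untreated-labelled library, where an overlapping region of the other library, outside the tail-to-tail class, had 9.79. ZBTB7B and DCST2 had 7.16 in the lactate-labelled library and 4.94 in the other. All 6 places had a region in both libraries.

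Regions outside the simple classes were also strong. LEPR, the leptin receptor gene, and LEPROT start 16 bp apart on 1 strand and had a fold of 9.12 in both libraries. RBMXL1-KYAT3 had 8.82 and 10.42. Starts shared with a readthrough gene, ATF7 with ATF7-NPFF (8.71 and 8.23) and DNAJC25 with DNAJC25-GNG10 (8.57 and 10.74), are 1 start counted for 2 gene entries, and so is ABCF2 with ABCF2-H2BK1 (8.55 in the lactate-labelled library). ERV3-1 and its readthrough had 8.68 in the untreated-labelled library, and ANKAR-OSGEPL1 9.71 in the lactate-labelled library. Of places with several orientations, CAB39L-SETDB2 had 11.18 and 11.31. SF3B6-FAM228B-TP53I3 had 7.73 and 11.44, with pileups of 48 and 93 tags. TRIM23-SHLD3-TRAPPC13 had 8.52 in the untreated-labelled library, and ALG3-EEF1AKMT4 had 7.53 there. RAD17-AK6-TAF9 had 9.03 and BTK-RPL36A 8.97 in the lactate-labelled library. Among pairs with strand not known the highest were FAM72B-SRGAP2C (12.44), LOC105376335-KIF27 (10.93), VCPIP1 with a readthrough gene (10.88), ST13-XPNPEP3 (10.47) and RPL5-DIPK1A (10.38) in the untreated-labelled library. SLC25A32-DCAF13 (12.50), VCPIP1 again (11.47), CBX5-HNRNPA1 (11.07), USP37-CNOT9 (11.03) and ZBTB41-CRB1 (11.02) led the lactate-labelled library. Near-identical copies of FAM72B and SRGAP2C exist, and reads there are of uncertain origin.

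Sharing between the libraries was compared next. Regions at paired ends were shared more often than those at 1 gene, and head-to-head regions most of all. Of the members 1336 of 1479 in the untreated-labelled library shared at least 1 bp with some region called in the other (90.3%, interval 88.7 to 91.8), and 1311 of 1737 in the lactate-labelled library (75.5%, interval 73.4 to 77.5). Regions at the end of 1 gene did so in 84.8% (interval 84.0 to 85.7) and 69.9% (interval 68.9 to 70.9). Head-to-head regions were shared in 94.3% (interval 92.5 to 95.8) and 80.0% (interval 77.3 to 82.5), against 86.8% (interval 85.8 to 87.7) and 72.7% (interval 71.5 to 73.8) at a single start. Head-to-tail regions, shared in 86.4% and 67.6%, and tail-to-tail regions, in 74.2% and 65.6%, did not exceed the single starts. Regions at a single far end were shared in 67.4% and 52.5%. In equal lists the excess of head-to-head regions in the lactate-labelled library was 4.19 percentage points in place of 7.36, and that of all members 1.77 in place of 5.57, with a 95% half-width of 3.27 that includes 0. The regions left in 1 library alone were 143 members in the untreated-labelled library (9.67%) and 426 in the lactate-labelled library (24.5%), where 28.7% and 38.9% of all regions of these libraries stood alone.

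Since stronger peaks are shared more often, the shares were also taken within tertiles of fold enrichment. In the lowest tertile of the untreated-labelled library, up to a fold of 4.12, head-to-head regions were shared in 85.0% (interval 78.7 to 90.1) and single-start regions in 73.1% (interval 70.7 to 75.3). In the highest tertile the shares were 98.8% (interval 97.3 to 99.6) and 96.6% (interval 95.7 to 97.3). In the lactate-labelled library they were 53.8% (interval 46.6 to 60.8) against 45.4% (interval 43.1 to 47.8) in the lowest tertile, 71.0% (interval 65.2 to 76.4) against 68.8% (interval 66.7 to 70.9) in the middle tertile, and 96.0% (interval 93.9 to 97.6) against 94.3% (interval 93.4 to 95.2) in the highest. The intervals of both classes overlapped in all 3 tertiles of that library. Among shared regions the lactate-labelled over untreated-labelled pileup, each scaled by the total tags, had a median log2 ratio of 0.33 (interval 0.29 to 0.38) at 775 head-to-head regions and 0.32 (interval 0.30 to 0.33) at 4603 single-start regions, a difference within the intervals. The single sample a group gives no replicate check of that shift.

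**Figure D4:**
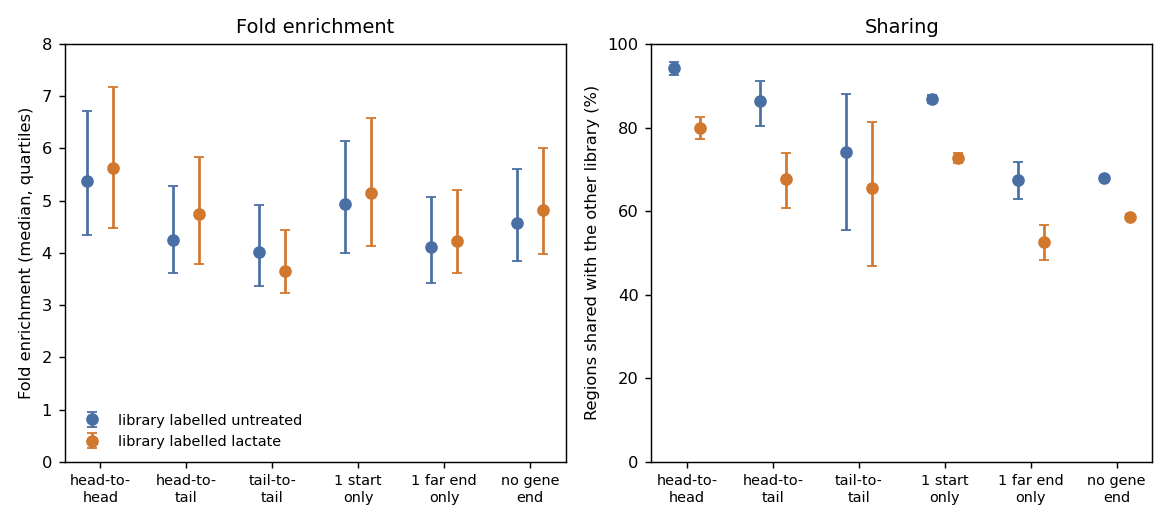
Left, median fold enrichment with quartiles (y axis) by region class (x axis). Right, share of regions that overlap a region of the other library (y axis, percent, 95% Clopper-Pearson intervals). Blue is the untreated-labelled library and orange the lactate-labelled library. Head-to-head regions have the highest median fold, 5.38 and 5.63, and the highest share, 94.3% and 80.0%, of the 6 classes drawn.

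Head-to-head starts marked in 1 library were mostly in the lactate-labelled library. Both libraries marked 1483 of the 2162 starts, the lactate-labelled library alone 241 and the untreated-labelled library alone 46, a ratio of 5.24. At isolated starts these numbers were 875 and 336, a ratio of 2.60, and at all starts the ratio was 2.75. The lactate-labelled list is longer, and with equal lists the shares of marked head-to-head starts were 52.1% and 55.1% in place of 70.7% and 79.7%. The ratio rests on 1 library each, and the difference between the ratios was not tested. The strongest members in the lactate-labelled library alone lay at EFHB-RAB5A, with RAB5A a gene of early endosomes (8.27, 20 tags), and at CWC15, a spliceosome gene, with the histone demethylase gene KDM4D (7.92, 18 tags). DPM1, of dolichol phosphate mannose synthesis, with MOCS3 (7.75, 19 tags) and SERAC1 with GTF2H5, a subunit gene of the repair factor TFIIH (7.64, 21 tags), followed. The nearest region of the other library was 57507, 8320, 21421 and 15232 bp away. In the untreated-labelled library alone they lay at ADAM9-TM2D2 (6.20, 14 tags), SUPT7L-SLC4A1AP (6.10, 14 tags), THAP6-RCHY1 (5.96, 11 tags) and ALG12, a mannosyltransferase gene, with CRELD2 (5.94, 23 tags). At SUPT7L-SLC4A1AP and THAP6-RCHY1 the other library had a region only 13 and 88 bp away, so these places were not bare there. At ADAM9-TM2D2 and ALG12-CRELD2 the nearest one lay 7832 and 12141 bp away.

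Promoter sequence was compared for starts with a RefSeq promoter of 300 bases, from 250 before to 50 after the start, at the annotated gene end. There were 1907 such head-to-head starts of 2162 (88.2%) and 9100 isolated starts. Head-to-head promoters held more CpG, with a median of 26.0 (quartiles 20 and 34.0) against 21.0 (quartiles 6.0 and 31.0), and a median GC content of 64.7% against 62.0%. GC boxes were present in 71.5% against 55.8%, and in 58.5% of all 13792 promoters. ETS cores were present in 39.2%, 19.1% and 23.1%, CCAAT boxes in 39.9%, 36.7% and 37.1%, NRF1 motifs, searched as 10 fixed letters, in 3.04%, 1.56% and 1.84%, and TATA boxes in 3.93%, 11.3% and 10.0%. Both strands were searched, and head-to-head promoters often overlap, so that 1 match can count for 2 genes. A motif can be missed where it differs from these letters.

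Within tertiles of the CpG number, head-to-head starts were marked more often than isolated ones. Among promoters with at most 14 CpG, the lowest tertile, 59.8% of 209 head-to-head starts were marked in the untreated-labelled library (interval 52.8 to 66.5) and 63.6% in the lactate-labelled library (interval 56.7 to 70.2). For 3488 isolated starts the shares were 13.6% (interval 12.5 to 14.8) and 15.7% (interval 14.5 to 17). The median number of CpG in this tertile was 10.0 for head-to-head and 4.00 for isolated starts, so the classes were not alike in it. The medians were both 22 in the middle tertile, and 35 and 36 in the highest. In the middle tertile the shares were 79.0% and 85.9% against 57.1% and 62.0%. In the tertile with over 28 CpG they were 65.7% and 78.2% against 51.8% and 61.3%. Expression of the genes was not analysed here, so its part in the difference was not tested.

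**Figure D5:**
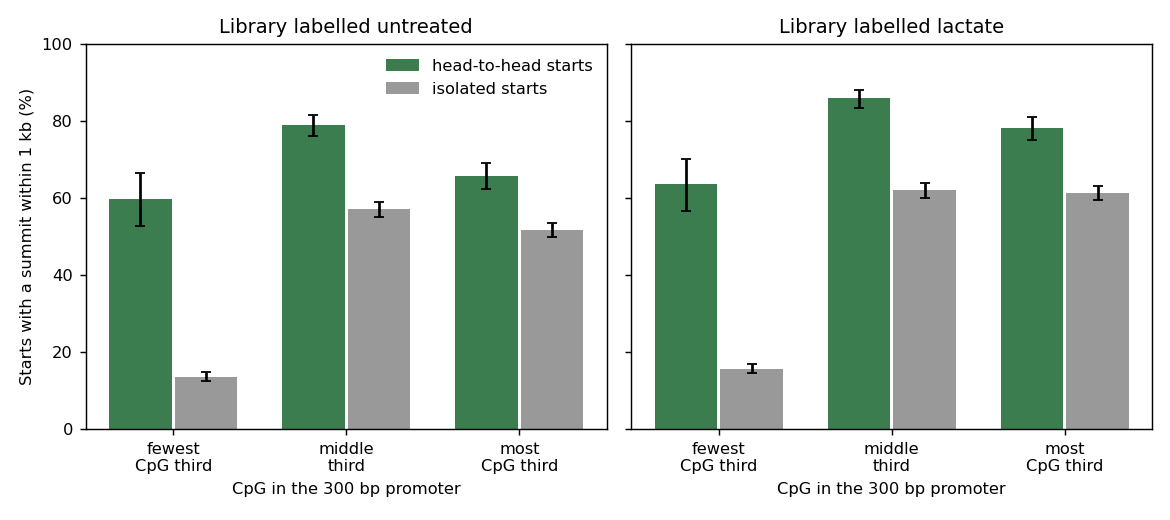
Share of starts with a summit within 1 kb (y axis, percent, 95% Clopper-Pearson intervals) for head-to-head (green) and isolated (grey) starts, in tertiles of the CpG number of the 300 base promoter (x axis), for each library. Head-to-head starts lie above isolated starts in all 3 tertiles, from 59.8% against 13.6% in the lowest tertile of the untreated-labelled library.

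Textbook bidirectional pairs were looked up whatever their values. Of 12 pairs, 8 had a member region in both libraries, 1 in the lactate-labelled library alone and 3 in neither. The mitochondrial chaperonin genes HSPD1 and HSPE1, whose starts are 105 bp apart, had folds of 11.17 in the untreated-labelled library and 11.93 in the lactate-labelled library. ATM, the DNA damage kinase gene, and NPAT, the histone gene activator, had 7.55 and 10.66. TAP1 and the immunoproteasome gene PSMB9 had 4.62 and 7.56. PREPL-CAMKMT had 6.46 and 6.18, MRPS12-SARS2, both of mitochondrial translation, 5.71 and 6.44, the trifunctional protein genes HADHA and HADHB 4.72 and 5.24, and SIRT3-PSMD13 4.11 and 5.64. The region at SIRT3-PSMD13 did not reach the stretch between the starts in the untreated-labelled library, and covered it in the lactate-labelled library. The type IV collagen genes COL4A1 and COL4A2 had a weak region in the lactate-labelled library alone (2.76, 9 tags), which lay beside the stretch between the starts and not over it. SURF1-SURF2 had none in either library. PPAT-PAICS and ACADVL-DLG4 had annotated ends 17145 and 2925 bp apart at the closest, too far for any summit to be within 1 kb of both.

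Genes of 6 functional lists were counted by their starts. DNA repair genes, replication-dependent histones and the mitochondrial lists lay head-to-head more often than genes at large, and most of these starts were marked, with intervals that include the shares of all head-to-head starts. Of all 15812 genes of known strand 13.7% were head-to-head (interval 13.1 to 14.2). The shares were 39.7% of 68 DNA repair genes (interval 28 to 52.3), 39.7% of 63 histone genes, 33.3% of 69 mitochondrial ribosome genes, 32.6% of 86 genes of the respiratory chain and its assembly, 15.9% of 44 proteasome genes and 10.1% of 437 ZNF genes. Of the 27 head-to-head DNA repair genes 21 were marked in the untreated-labelled library and 22 in the lactate-labelled library. Among them were PMS2 beside AIMP2 (7.68 and 10.10), FANCB beside MOSPD2 (9.13 and 10.59), RAD1 beside BRIX1 (9.14 and 11.36) and APEX1, the abasic site nuclease gene, beside OSGEP (7.28 and 8.98). DDB1, XRCC3 and ATRIP had none. In both libraries the other DNA repair genes were marked nearly as often, 30 and 33 of 41.

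H2A and H2B genes often lie head-to-head with each other. Of the 25 head-to-head histone starts 22 and 23 were marked in the libraries labelled untreated and lactate, against 21 of the other 38 in each library. H2AC11-H2BC11 had 8.64 and 7.21, H2AC25-H2BC26 5.28 and 7.64 and H2AC6-H2BC4 5.58 and 6.45, while H2AC1-H2BC1 had none in either library. Histone genes have close copies in the genome, which makes their read assignment uncertain. Of the mitochondrial ribosome 17 and 19 of 23 were marked (73.9% and 82.6%), near the 70.7% and 79.7% of all head-to-head starts and the 69.6% and 76.1% of the other genes of the list. Among them were MRPS27 beside PTCD2 (5.88 and 9.95), MRPL49 beside the ribosomal gene FAU (7.43 and 7.09) and MRPL46 beside MRPS11, 2 subunit genes at 1 promoter (4.58 and 4.86). Of the respiratory chain list 20 and 23 of 28 were marked (71.4% and 82.1%), again near all head-to-head starts, and 65.5% and 70.7% of its other genes. Examples were ATP5PF beside the ETS factor gene GABPA (7.27 and 9.26), NDUFA8 beside MORN5 (7.91 and 8.29) and UQCRQ beside GDF9 (7.06 and 7.83). Both libraries marked all 7 head-to-head proteasome genes (interval 59.0 to 100%) and 24 of the other 37 (64.9%). The 7 include PSMA2 beside MRPL32 (5.67 and 4.84) and PSME2 beside RNF31 (5.61 and 7.45).

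Head-to-head ZNF genes, which encode zinc finger proteins, were marked in 25 of 44 cases in the untreated-labelled library (56.8%, interval 41.0 to 71.7) and in 23 of 44 in the lactate-labelled library (52.3%, interval 36.7 to 67.5). All head-to-head starts were marked in 70.7% and 79.7%, and the first of these lies inside the interval of the ZNF genes. The other ZNF genes were marked in 46.3% and 46.1%, against 37.6% and 42.8% of all genes that are not head-to-head. ZNF10-ZNF891 had folds of 10.29 and 10.08, ZNF490-ZNF791 6.94 and 7.72 and ZNF398-ZNF425 5.71 and 6.92. ZNF529-ZNF382, ZNF461-ZNF567, ZNF790-ZNF345 and ZNF829-ZNF568 had none in either library. Where both genes of a pair are on the list, both count, so the members are not independent of each other.

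Regions near the limit of 1 kb had the following folds. The 3 members of the untreated-labelled library whose second gene end was exactly 1000 bp from the summit, ANKRD13A-GIT2, C20orf141-TMEM239 and CSF1R-PDGFRB, had folds of 4.37, 5.53 and 4.53. The 3 regions just outside, XPOT-TBK1, LOC128966729-LOC128966730 and TMEM265-SRCAP at 1004 to 1007 bp, had 3.93, 4.47 and 3.85. In the lactate-labelled library USF1-ARHGAP30, JMJD7-PLA2G4B and SLC6A16-TEAD2 just inside had 3.87, 3.10 and 6.81, and NAA16-MTRF1, RPL12-LRSAM1 and GRIN2D-GRWD1 just outside had 4.14, 3.83 and 4.26.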

How the data were processed

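CUT&Tag libraries of untreated and lactate-treated CAL27 cells, 1 each, were analysed. Their 15696147 and 15120031 tags bound the precision of every value. The tools listed in the submitters' processing notes are fastp 0.20.0, BWA and MACS2 2.1.0, and the build is hg38. Each list was made without a control by MACS 2.1.0.20150420, per the file headers, at a q of 0.05, a shift of -100 and an extension of 200 bp, from input named as deduplicated. The authors' deposited lists give the pileup, which is an unscaled tag signal at the summit, and fold enrichment, a ratio to local background with 1 added to both. No source used here says whether spike-in scaling was done.

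Summits of 1 region were collapsed, and the one of highest fold stood for it. Ends of genes were read from RefSeq for GRCh38.p14, the build of the peaks, and strand from the RefSeq promoter table. Counts of shared and paired regions were checked with bedtools 2.31.1, and the counting was tested on simulated data. Alternatives were the window, any summit, a fold of at least 5, equal lists of 21706 strongest regions, leaving out readthrough and same-side overlapping genes, and an overlap of 50%. Regions named were the 5 of highest fold per class and library, the 4 highest in 1 library alone, 3 on each side of the limit, and 12 textbook pairs, 1 of which is counted but not reported here. From the lists, examples were chosen after their values were seen. The members, lists and rules were chosen with earlier results of these data known. Computing used SciPy 1.17.1, numpy 2.4.6 and pandas 2.3.3 under Python 3.11.15, and plots matplotlib 3.10.9.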

Additional observations from a re-analysis of the deposited data

How the results depend on the processing

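All 76 differences between classes computed under an alternative kept their sign, but 9 of them, 2 in the untreated-labelled and 7 in the lactate-labelled library, were smaller than their 95% half-width and so include 0. Of 88 alternative values 30 moved, a difference by more than the half-width of the reported value and a number of members by over 1.5 times. Values are given for the untreated-labelled library and then lactate where both moved. The number of members, 1479 and 1737, was 985 and 1126 with a window of 0.5 kb, 756 and 998 at a fold of at least 5, and 877 and 953 with equal lists of the 21706 strongest regions, settings that admit fewer regions. With a window of 2 kb it was 2047 and 2468. The excess of marked paired over isolated ends, 20.6 and 23.4 percentage points, was 18.2 and 20.8 with a window of 2 kb, 12.4 and 16.3 at a fold of at least 5, 13.7 and 15.7 with equal lists, and 22 and 25 without readthrough and same-side overlapping genes. With 0.5 kb it was 21.9 in the untreated-labelled library. The excess of head-to-head over isolated starts, 33.6 and 37.4, was 26.3 and 30.9 at a fold of at least 5 and 28.2 and 30.3 with equal lists, and 34.7 with 2 kb in the lactate-labelled library. In that library the excess in sharing of paired over single-end regions, 5.57, was 2.86 ± 3.41 at a fold of at least 5 and 1.77 ± 3.27 with equal lists. For head-to-head over single-start regions it was 4.48 at a fold of at least 5 in the untreated-labelled library (7.52) and 4.19 with equal lists in the lactate-labelled library (7.36). The excess in median fold of paired over single-end regions was 0.39 with 0.5 kb in the untreated-labelled library (0.20). In the lactate-labelled library (0.36) it was 0.10 ± 0.12 with 2 kb, 0.08 ± 0.14 at a fold of at least 5 and 0.05 ± 0.13 with equal lists. For head-to-head over single-start regions it was 0.18 ± 0.20 at a fold of at least 5 and 0.14 ± 0.24 with equal lists in that library (0.49). The cause of the other moves was not tested. No paired analysis was possible because each group has 1 library, which also leaves no replicate to leave out.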

Other observations

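Of 5 motifs searched in head-to-head promoters, CCAAT boxes and ETS cores differed most between marked and unmarked starts. CCAAT boxes were present in 45.1% of 1320 head-to-head promoters marked in both libraries and in 25% of 336 marked in neither, and ETS cores in 40.7% and 28.9%. GC boxes were present in 73.0% and 66.1%, TATA boxes in 4.47% and 3.27%, and NRF1 motifs in 3.11% and 3.27%. At isolated starts ETS cores were present in 30.5% of 3228 promoters marked in both libraries and in 10.6% of 4796 marked in neither. For GC boxes these shares were 73.5% and 40.7%, and for CCAAT boxes 40.5% and 35.3%. The contrast in ETS cores is thus not particular to head-to-head promoters. Of 761 head-to-head starts with a CCAAT box 80.2% (interval 77.1 to 82.9) were marked in the untreated-labelled library and 87.0% (interval 84.4 to 89.3) in the lactate-labelled library. Of 1146 without one 65.5% (interval 62.7 to 68.3) and 75.7% (interval 73.2 to 78.2) were marked. Median CpG was 26.0 in head-to-head promoters marked in both libraries and 28 in those marked in neither, while at isolated starts it was 27.0 and 9. These are descriptions of letters in 1 library per group, with no test.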
